A study of Mus musculus with 58 samples.

Results

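The CLC proteins are a family of chloride channels and chloride/proton exchangers, and their messenger RNAs were followed here in mouse quadriceps muscle. The members are the 6 genes Clcn1, Clcn2, Clcn3, Clcn5, Clcn6 and Clcn7. They were taken as every probe set, a group of short probes that gives 1 value on an Affymetrix array, annotated to 1 of those symbols. Whether a probe set also reads RNA of other genes was not tested. The symbols have 16 of the 45037 probe sets: 1 for Clcn1, 1 for Clcn2, 5 for Clcn3, 4 for Clcn5, 2 for Clcn6 and 3 for Clcn7. Probe sets were taken by annotation alone and not by their values, but the members were chosen with earlier results of these data known.

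The study holds 34 male mice in 7 groups and 3 experiments, without treatment other than the genetic changes. Experiment 1 compared the CUGexp transgenic lines 20b and 41, which carry an expanded CUG repeat on an FVB background, with FVB wild type (6 mice each, 6 months old). Experiment 2 compared Clcn1-null mice on a BALB background with BALB wild type (3 mice each, 3 months old). Experiment 3 compared Mbnl1-null mice on an FVB background with FVB wild type (5 mice each, 3 months old). The labels name neither the promoter that drives the transgene nor the number of founders behind a line, and they do not say whether controls were littermates. Experiments 1 and 2 used the array pair 430A and 430B, and experiment 3 the single array 430 2.0, so groups are tested only within an experiment.

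CLC proteins work as pairs. ClC-1 sits in the surface membrane of muscle fibres, where it carries most of the resting chloride current that steadies the membrane after each action potential, and loss of this current causes myotonia. ClC-2 is a plasma membrane channel that opens when the membrane is hyperpolarised. ClC-3, ClC-5, ClC-6 and ClC-7 are exchangers of endosomes and lysosomes, which swap chloride for protons. In myotonic dystrophy the expanded repeat RNA sequesters muscleblind proteins such as MBNL1, and ClC-1 RNA then keeps an exon with an early stop codon. A probe set reads the amount of RNA and does not show which exons it holds.

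The promoter windows of the 2 members with called changes are shown to give the sequence context of the genes the results turn on. They come from the RefSeq table of GRCm38.p6 and run from 250 bases before to 50 after the annotated start, in the direction of transcription. Capitals mark E-boxes (CANNTG), the MEF2 core CTANNNNTAG and the TATA box TATAAA, searched on both strands. The Clcn1 window lies at chr6:42286435-42286734 on the plus strand, and the first of the 2 Clcn3 windows in the table lies at chr8:60983262-60983561 on the minus strand.

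Clcn1 promoter: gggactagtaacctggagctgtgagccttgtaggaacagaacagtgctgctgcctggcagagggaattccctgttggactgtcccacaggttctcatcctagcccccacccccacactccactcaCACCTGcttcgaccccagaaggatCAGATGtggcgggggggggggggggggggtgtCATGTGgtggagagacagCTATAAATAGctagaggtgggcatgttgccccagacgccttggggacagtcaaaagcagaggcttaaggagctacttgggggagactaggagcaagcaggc

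Clcn3 promoter: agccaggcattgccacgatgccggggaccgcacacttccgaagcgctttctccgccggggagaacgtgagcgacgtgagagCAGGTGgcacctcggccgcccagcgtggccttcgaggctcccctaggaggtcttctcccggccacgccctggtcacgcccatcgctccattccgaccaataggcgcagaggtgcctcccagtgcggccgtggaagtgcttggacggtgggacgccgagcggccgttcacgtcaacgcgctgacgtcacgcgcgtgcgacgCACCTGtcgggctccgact

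The Clcn1 window holds 3 E-boxes and 1 MEF2 core, and the TATA box lies inside that core. Among 32851 promoter windows of the same length, 72.3% hold an E-box, 3.69% the MEF2 core and 13.6% the TATA box. The Clcn3 window holds 2 E-boxes and neither of the other motifs. These matches describe the letters only.

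Values are log2 of the intensity the authors deposited. A probe set was tested in an experiment when it reached log2 5, an intensity of 32, in at least as many mice as the smallest group holds. By this filter 12 member probe sets of 5 genes were tested in experiment 1, 11 of 5 genes in experiment 2 and 7 of 3 genes in experiment 3. A change is the mean of the first group minus that of the second, with the standard error (SE) and 95% confidence interval of a limma fit over all probe sets. It was called when its Benjamini-Hochberg adjusted p was under 0.05. Nothing in the labels says more of the replicates than that they are numbered mice. The limma p-values set a change against the spread between mice. That spread is pooled over the groups of an experiment and drawn towards that of the other probe sets.

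The median intensity per array lay between 298.5 and 437.8 on 430A, between 22.35 and 34.39 on 430B and between 9.559 and 11.62 on 430 2.0. All 12 fast muscle fibre markers were measured, with a mean log2 level of at least 15.45 in every mouse. FVB wild-type mice 1 and 2 of experiment 1 stood apart from the other wild types. Their mean log2 levels were 10.91 and 8.83 over 9 slow fibre genes, where mice 3 to 6 had 12.71 to 13.40, and 13.56 and 13.95 over 5 adipocyte genes, where mice 3 to 6 had 11.38 to 12.19. Results of experiment 1 were therefore also computed without these 2 mice. In whole muscle, fewer cells of a type and less RNA per cell cannot be told apart.

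Clcn1, the muscle surface channel, was lower in both CUGexp lines and in Mbnl1-null muscle, and lower in line 20b than in line 41. Its single probe set, 1427591_at, is described first in the mice labelled as null for the gene itself. The 3 Clcn1-null mice read 9.30, 9.54 and 9.39 on the log2 scale, against 10.96, 10.25 and 11.27 in BALB wild type. No null mouse reached a wild-type mouse, and the signal stayed well above the filter in all of them. Where the probes lie relative to the mutation is not given in the sources used here, so the remaining signal cannot be read as functional RNA, and the probe set checks the label only in part. The null level was 37.3% of wild type (95% interval 23.4% to 59.6%), a log2 change of -1.42 (SE 0.28) with a limma adjusted p of 0.0507, just outside the threshold. Without BALB wild-type mouse 2, the lowest of its group, the change was -1.71 with a limma adjusted p of 0.0367, and with any of the other 5 mice left out it was not called (limma adjusted p up to 0.203). The same null mice had lower slow fibre markers (mean log2 10.58 to 11.90, against 13.07 to 13.54 in BALB wild type) and higher adipocyte markers (13.35 to 13.78, against 11.32 to 11.83), and the part of these in the CLC values was not tested.

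In line 20b, Clcn1 ran from 11.17 to 11.53 with a median of 11.32, against 12.02 to 12.62 with a median of 12.29 in FVB wild type. The 2 ranges were far apart, and each of the 6 transgenic mice lay below each wild type. The mean was 11.33 ± 0.13 (SD, n = 6) in line 20b and 12.28 ± 0.21 (SD, n = 6) in wild type. That is 51.9% of wild type (95% interval 44.9% to 60%), a change of -0.95 (SE 0.10, limma adjusted p 2.68e-06).

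Line 41 had a smaller decrease in Clcn1. Its mice ran from 11.58 to 12.08 with a median of 11.80, and 5 of 6 lay below every wild-type mouse. Mouse 2, at 12.08, was above the lowest wild type at 12.02. The mean level was 72.6% of wild type (95% interval 62.8% to 83.9%), a change of -0.46 (SE 0.10, limma adjusted p 0.00743). Set directly against each other, all 6 line 20b mice lay below all 6 line 41 mice, at 71.4% of the line 41 level (95% interval 61.8% to 82.6%). This change of -0.49 (SE 0.10) was called as well (limma adjusted p 0.00708). The comparisons with wild type share their 6 control mice.

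Mbnl1-null muscle read 8.89, 9.19, 9.29, 9.38 and 8.83 for Clcn1, against 9.94, 10.18, 10.43, 10.11 and 10.45 in FVB wild type of experiment 3. The groups were fully apart. The level was 46.4% of wild type (95% interval 37.7% to 57.2%), a change of -1.11 (SE 0.14, limma adjusted p 0.000405). Slow fibre markers were lower in the same null mice (7.76 to 10.91, against 11.79 to 12.28 in wild type), and their part in the Clcn1 value was not tested. In the same mice the targeted gene Mbnl1, the splicing regulator, read 13.20, 12.90, 13.18, 13.05 and 13.09 on probe set 1416904_at, against 13.88, 13.82, 13.76, 13.78 and 13.81 in wild type. All null mice were lower (-0.73, SE 0.06, limma adjusted p 4.83e-05), and the position of those probes relative to the deletion is likewise not given. Within experiment 1 the order of Clcn1 levels was thus line 20b, line 41 and wild type from low to high, with each neighbouring pair past the threshold.

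**Figure D1:**
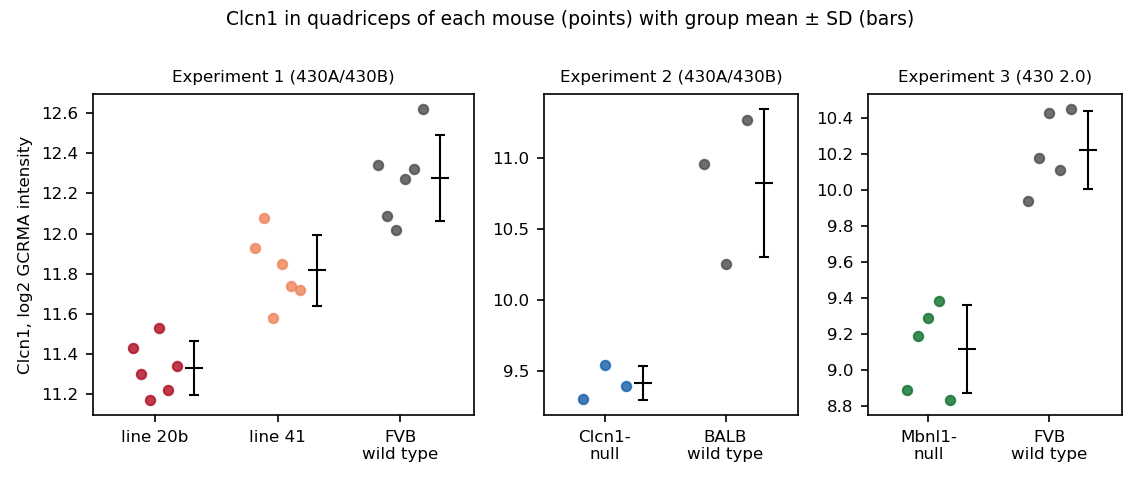
Log2 intensity of Clcn1 (vertical axis) for each mouse (points) by group, 1 panel per experiment, with the group mean and SD as bars; the vertical scale differs between panels. Line 20b mice lie at 11.17 to 11.53, below line 41 at 11.58 to 12.08 and FVB wild type at 12.02 to 12.62, and both null groups lie below their wild types.

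Over all features, 16.9% of probe sets were called in line 20b against wild type, 8.49% in line 41 against wild type and 5.91% in line 20b against line 41. In the null mice the share was 4.21% for Clcn1-null and 16.2% for Mbnl1-null muscle. Among the member probe sets, 2 of 12 were called in line 20b (1 higher, 1 lower) and 2 of 12 in line 41 (1 higher, 1 lower). Between the lines 1 of 12 was called (lower in line 20b). None of 11 was called in Clcn1-null muscle by limma, where 2 had an unadjusted p under 0.05, and 1 of 7 was called in Mbnl1-null muscle (lower). With 3 mice in each group, a missing call in the Clcn1-null comparison does not show an unchanged RNA. Their median log2 change was 0.14, -0.00, 0.07, -0.36 and 0.10 in the same order, against -0.01, -0.00, -0.00, 0.03 and -0.02 over all probe sets tested. In each comparison with calls, 1 called probe set was that of Clcn1. The other member genes thus gave 1 call in line 20b and 1 in line 41, both in Clcn3. Clcn4, a CLC gene that is not among the members, is described further below.

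**Figure D2:**
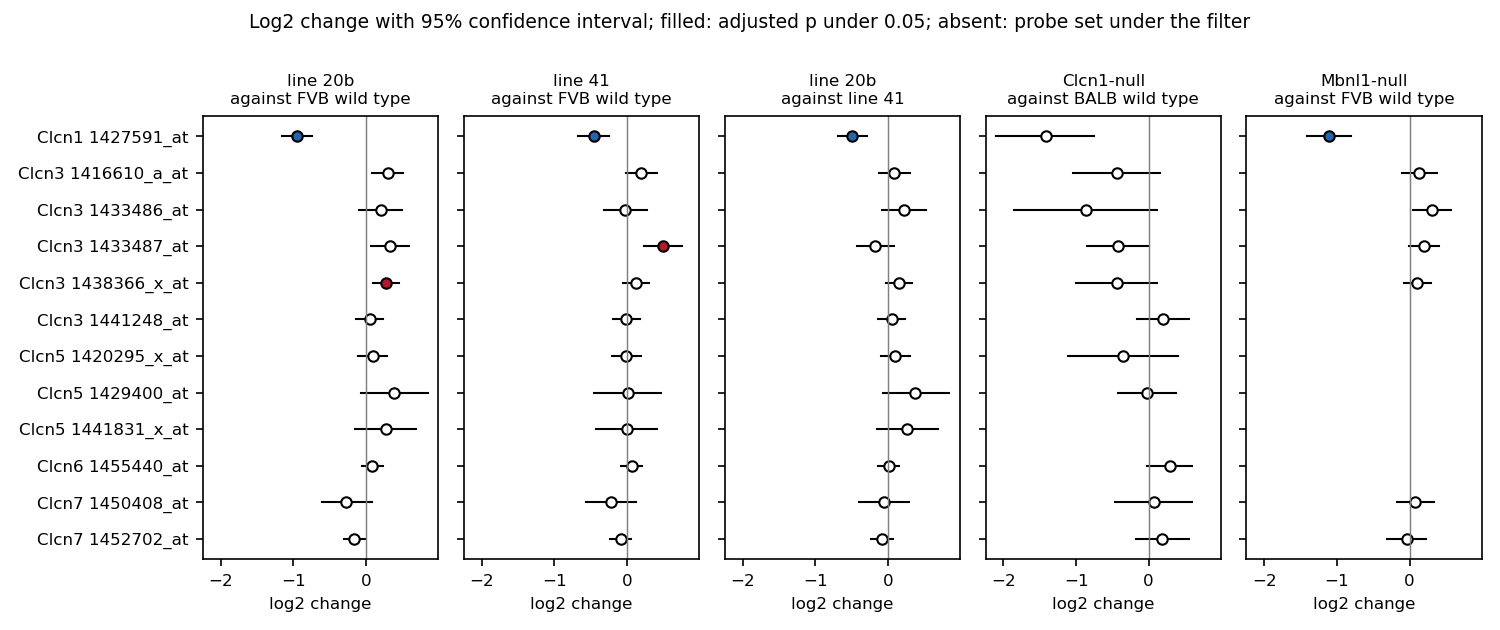
Log2 change (horizontal axis) of each member probe set past the filter in the 5 comparisons, with its 95% confidence interval. Filled points were called, blue lower and red higher in the first group. Clcn1 is the point furthest left in every panel, at -0.95, -0.46, -0.49, -1.42 and -1.11, and is open in the Clcn1-null panel.

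Clcn2, the hyperpolarisation-gated channel, could not be measured. Its probe set 1449248_at stayed between 1.97 and 2.95 on the log2 scale in all 34 mice, below the filter. The 3 other probe sets under the filter in all experiments were 1450787_at of Clcn5, 1422314_at of Clcn6 and 1425821_at of Clcn7. A low reading here gives no level for the RNA.

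Clcn3 encodes a ubiquitous exchanger of late endosomes. In line 20b its probe set 1438366_x_at ran from 13.20 to 13.43 with a median of 13.34, against 12.71 to 13.26 with a median of 13.01 in wild type. The ranges overlapped, with 4 of 6 transgenic mice above every wild type. This was a rise of 0.28 (SE 0.09, 121% of wild type, limma adjusted p 0.0355). The call depended on single animals: it was lost, at limma adjusted p values up to 0.0785, when wild-type mouse 1, 3, 4 or 5 or line 20b mouse 1, 2, 5 or 6 was left out, and with no filter (0.0589).

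The other 4 Clcn3 probe sets were not called in line 20b. Probe set 1416610_a_at differed by 0.30 (95% interval 0.08 to 0.51, limma adjusted p 0.0566) and 1433487_at by 0.33 (0.07 to 0.59, 0.0757). For 1433486_at the difference was 0.20 (-0.10 to 0.50), and for 1441248_at it was 0.05 (-0.14 to 0.23). All 5 estimates were thus above 0, and the intervals of 3 left out 0.

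In line 41 a different Clcn3 probe set was called. For 1433487_at the mice ran from 11.44 to 11.87 with a median of 11.68, against 10.76 to 11.54 with a median of 11.19 in wild type, and 4 of 6 lay above every wild type. The rise was 0.50 (SE 0.12, 142% of wild type, limma adjusted p 0.0162), and it was called with each mouse left out in turn (limma adjusted p up to 0.0415). The remaining 4 had intervals that included 0, from -0.02 for 1433486_at to 0.20 for 1416610_a_at. Between the lines no Clcn3 probe set was called. The differences ran from -0.17 (95% interval -0.43 to 0.09) for 1433487_at to 0.22 (-0.08 to 0.52) for 1433486_at.

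In Clcn1-null muscle 4 of 5 Clcn3 probe sets read lower and none was called. Probe set 1433486_at read 12.46, 12.07 and 10.89 in the null mice, against 12.66, 12.68 and 12.70 in BALB wild type. All 3 null mice were below wild type, but mouse 3 lay far below the other nulls, and the change of -0.87 (SE 0.40) had a 95% interval of -1.86 to 0.11. For 1433487_at the null mice read 9.74, 9.27 and 9.23, against 9.90, 9.84 and 9.78 in wild type (-0.42, SE 0.17, limma adjusted p 0.262). Probe sets 1416610_a_at and 1438366_x_at both differed by -0.44, with intervals that included 0, and 1441248_at by 0.20 (-0.16 to 0.56).

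Mbnl1-null muscle had 4 measured Clcn3 probe sets, all with estimates above 0 and none called. Probe set 1433486_at read 11.14, 11.16, 11.08, 11.34 and 10.70 in the null mice, against 10.75, 10.65, 11.00, 10.86 and 10.62 in wild type. Of the null mice, 4 lay above every wild type and mouse 5 did not. The change was 0.31 (95% interval 0.05 to 0.57, limma adjusted p 0.101). Over the 10 fits with 1 mouse left out it ran from 0.25 to 0.41 (limma adjusted p 0.0167 to 0.209). It was called in 1 of these, the fit without Mbnl1-null mouse 5. The other 3 changes were 0.20, 0.13 and 0.10, each with an interval that included 0.

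**Figure D3:**
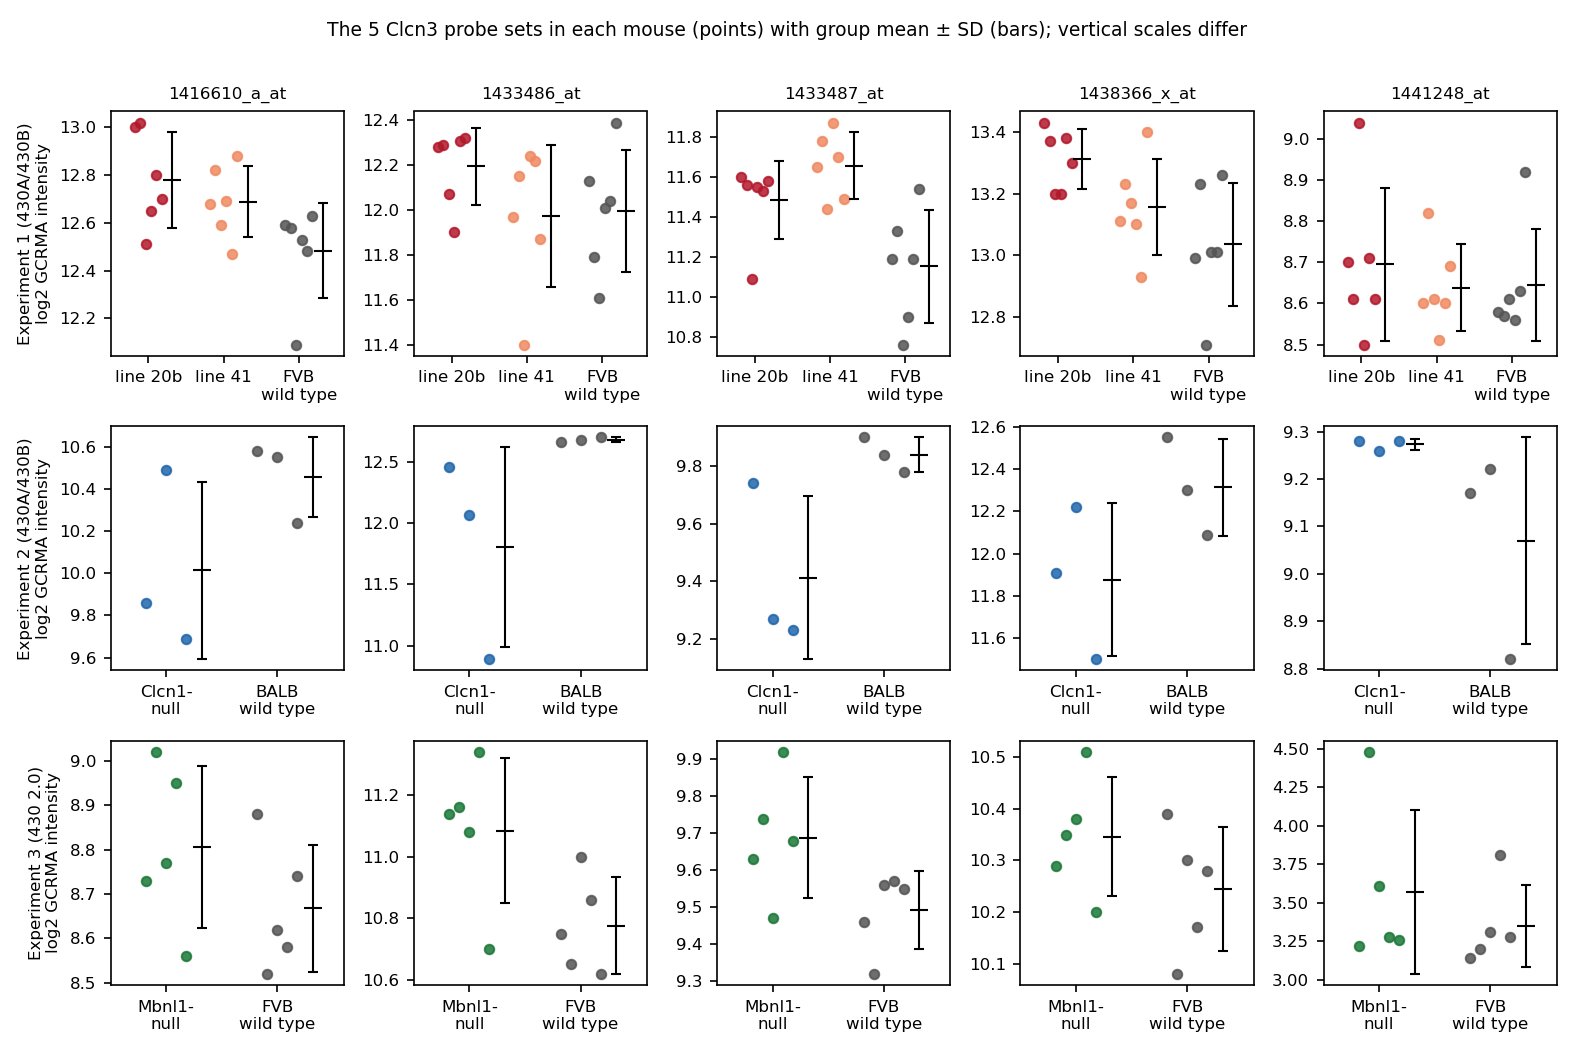
Log2 intensity (vertical axes, differing scales) of the 5 Clcn3 probe sets (columns) for each mouse (points) in the 3 experiments (rows), with group mean and SD as bars. The called rises are 1438366_x_at in line 20b and 1433487_at in line 41; 1441248_at lies between 8.50 and 9.28 in experiments 1 and 2 and below 4.5 in experiment 3.

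Probe sets of 1 gene can change unequally, since they may read different transcript ends. The difference of each Clcn3, Clcn5 and Clcn7 probe set from the brightest of its gene was compared between groups by a two-sided exact permutation test, 31 pairs in all. Of these, 2 had an unadjusted exact p under 0.05, both for Clcn3 1433487_at: 0.38 in line 41 against wild type (exact p 0.0216) and -0.33 in line 20b against line 41 (exact p 0.0303). None passed adjustment over the pairs, with a lowest adjusted p of 0.47. The smallest exact p these groups can give is 0.00216 for 6 against 6 mice, 0.00794 for 5 against 5 and 0.1 for 3 against 3. Adjusted over 31 pairs, 1 pair alone at these values could not pass, and no pair of 3 against 3 mice could pass at all. The missing calls therefore do not show that the probe sets of a gene changed alike.

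Clcn5, known for its role in endosomes of the kidney proximal tubule, had 3 tested probe sets in experiment 1 and 2 in experiment 2, and none was called. In line 20b, 1429400_at ran from 7.66 to 8.62 with a median of 7.91, against 7.24 to 8.24 with a median of 7.48 in wild type. These ranges overlapped, and the difference was 0.39 (95% interval -0.07 to 0.85). Across the other Clcn5 estimates of experiment 1, the differences ran from -0.01 to 0.38. In Clcn1-null muscle 1420295_x_at read 8.29, 8.45 and 9.41, against 9.15, 9.04 and 9.03 in wild type. The null mice straddled the wild types, with a difference of -0.36 (-1.11 to 0.40). Over the 6 fits with 1 mouse left out the difference ran from -0.70 to -0.14 (limma adjusted p 0.0253 to 0.783). It was called in 1 of these, the fit without Clcn1-null mouse 3.

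Clcn6 encodes an exchanger of late endosomes that is best known from neurons. Its probe set 1455440_at read 8.62, 8.53 and 8.42 in Clcn1-null mice, against 8.10, 8.36 and 8.26 in BALB wild type. All 3 null mice were above all wild types, with a mean difference of 0.29 (95% interval -0.02 to 0.59, limma adjusted p 0.291). In line 20b it ran from 7.06 to 7.15, against 6.91 to 7.06 in wild type, a difference of 0.08 (-0.06 to 0.23). Line 41 differed from wild type by 0.07 (-0.08 to 0.21) and line 20b from line 41 by 0.01 (-0.13 to 0.16).

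Clcn7 encodes the lysosomal exchanger, which needs the subunit OSTM1 for its stability and is required by bone-resorbing osteoclasts. Its brighter probe set 1452702_at ran from 10.56 to 10.66 with a median of 10.63 in line 20b, against 10.68 to 10.92 with a median of 10.75 in wild type. The groups did not overlap, but the difference was small, -0.16 (95% interval -0.31 to -0.02), and was not called (limma adjusted p 0.132). In line 41 the difference was -0.08 (-0.23 to 0.06). Clcn1-null mice read 10.57, 10.51 and 10.44, against 10.55, 10.14 and 10.25 in BALB wild type, a difference of 0.19 (-0.17 to 0.56). In Mbnl1-null muscle it was -0.04 (-0.31 to 0.23). The dimmer 1450408_at differed by -0.27 in line 20b (-0.61 to 0.08) and by -0.22 in line 41 (-0.56 to 0.13). Its difference was 0.07 in Clcn1-null mice (-0.46 to 0.59) and 0.08 in Mbnl1-null mice (-0.17 to 0.33).

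Among the other CLC genes and subunits, 4 genes were tested in experiments 1 and 2 (Clcn4, Ostm1, Bsnd and Hepacam) and 2 in experiment 3. None was called in either CUGexp line or between them. Ostm1 was the 1 gene of 4 called in Clcn1-null muscle, where it fell. The null mice read 11.19, 11.38 and 11.07, against 12.78, 12.46 and 12.94 in BALB wild type. That is 35.1% of wild type (95% interval 26.2% to 47.1%), a change of -1.51 (SE 0.17, limma adjusted p 0.014). The call was lost without BALB wild-type mouse 1 or 3 or Clcn1-null mouse 1, at limma adjusted p values up to 0.0898. Ostm1 differed by -0.11 in line 20b (-0.31 to 0.09), 0.02 in line 41 (-0.18 to 0.21) and -0.01 in Mbnl1-null muscle (-0.24 to 0.21).

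**Figure D4:**
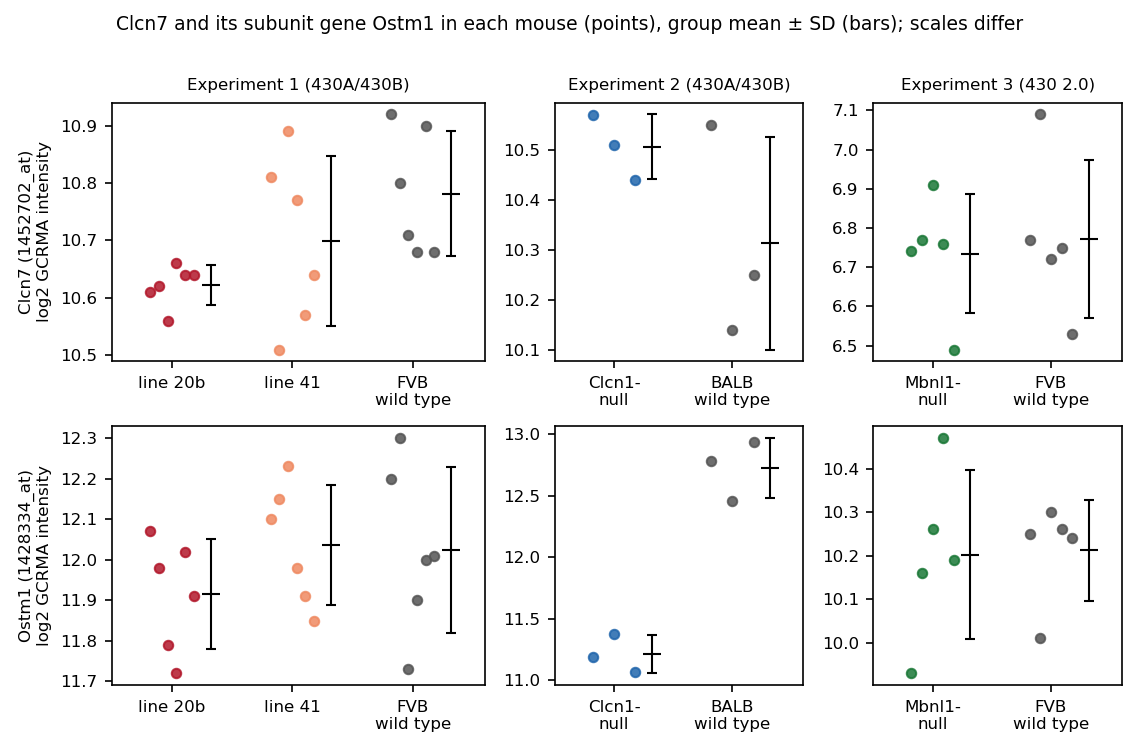
Log2 intensity (vertical axes, differing scales) of Clcn7 1452702_at (top) and Ostm1 1428334_at (bottom) for each mouse (points) by group and experiment, with group mean and SD as bars. Ostm1 lies at 11.07 to 11.38 in Clcn1-null mice, below 12.46 to 12.94 in BALB wild type.

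Clcn4, an endosomal exchanger close to ClC-3 and ClC-5, was measured by 2 probe sets. In Mbnl1-null muscle 1448161_a_at fell by 0.25 (SE 0.08, limma adjusted p 0.048), and all 5 null mice were below all wild types. That call was lost with any 1 of the 10 mice left out, at limma adjusted p values up to 0.119. The other, 1415986_at, read 12.07, 11.59 and 11.62 in Clcn1-null mice, against 12.64, 12.13 and 12.94 in wild type (-0.81, 95% interval -1.43 to -0.19, limma adjusted p 0.163). All 3 null mice were lower, and the probe set was not called.

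Several members were read very differently in the 3 experiments, which differ in arrays and in age or strain. Clcn5 1420295_x_at averaged 6.95 in FVB wild type of experiment 1 and 9.07 in BALB wild type, but 1.45 in FVB wild type of experiment 3. Clcn6 1455440_at averaged 7.01, 8.24 and 2.46 in the same order, and Clcn3 1441248_at 8.65, 9.07 and 3.35. Bsnd, the kidney and inner ear subunit of other CLC channels, behaved likewise, with 8.52 to 8.83 and 9.29 to 9.37 in the wild types of experiments 1 and 2 and 2.45 to 2.51 in experiment 3. Of the 12 member probe sets past the filter in experiment 1, 5 were not past it in experiment 3. Of all 27330, 11263 were not (41.2%). Whether the readings of these probe sets in experiments 1 and 2 stand for RNA of the named genes was not tested.

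Genes with which CLC proteins share a pathway were counted by the brightest probe set of each gene. By that measure 18.6% of genes were called in line 20b, 8.87% in line 41 and 6.05% between the lines, and 4.71% and 16.1% in the Clcn1-null and Mbnl1-null comparisons. The first list holds genes that handle ClC-1 RNA or protein: splicing regulators, MEF2 factors, chaperones, kinases and ubiquitin ligase parts (21 tested). In line 20b 2 rose and 2 fell (median of the list -0.11), 1 rose in line 41 (-0.05), 1 rose and 1 fell between the lines (-0.08), none was called in Clcn1-null muscle (-0.37), and 1 rose and 6 fell in Mbnl1-null muscle (-0.18), where 1 of the 6 was the targeted gene Mbnl1 itself. The median over all genes was between -0.01 and 0.02 in these comparisons. The rises of Mef2c in line 41 and Mef2d between the lines were lost in 9 and 14 of 18 fits with 1 mouse left out.

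Celf2, an RNA-binding splicing regulator, fell by 0.82 in line 20b (SE 0.09, limma adjusted p 7.99e-06) on probe set 1423895_a_at. In Mbnl1-null muscle it fell by 0.97 (SE 0.12, 0.000416) on 1450069_a_at. Its probe sets disagreed. Of the other 5 in line 20b, 2 fell and 3 were not called (-0.03, 0.02 and -0.00), and of the other 3 in Mbnl1-null muscle 2 fell and 1 rose by 0.50. Prkcq, the theta isoform of protein kinase C, rose by 0.59 in line 20b (SE 0.10, limma adjusted p 0.000517). Mbnl1 itself, on its brightest probe set, differed by -0.02 in line 20b (95% interval -0.11 to 0.08) and -0.05 in line 41 (-0.14 to 0.05). In Clcn1-null muscle it differed by -0.37 (-0.65 to -0.08, limma adjusted p 0.164). Another Mbnl1 probe set, 1457924_at, rose by 0.63 in line 41 (SE 0.14, limma adjusted p 0.0089) and differed by 0.00 in line 20b (-0.29 to 0.30). It was lower in line 20b than in line 41 (-0.63, limma adjusted p 0.0117).

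Nonsense-mediated decay removes RNA with an early stop codon. Of its genes, 1 of 11 fell in line 20b, 1 of 11 in line 41, none between the lines, 1 of 10 in Clcn1-null and 1 of 9 in Mbnl1-null muscle. Smg1, a kinase of this pathway, fell by 0.33 in line 20b (SE 0.07, limma adjusted p 0.00208) and also in line 41 (-0.32, SE 0.07, 0.00585), while its 2 other probe sets were not called in either line. Upf2, a core factor, fell by 1.10 in Clcn1-null muscle (SE 0.20, limma adjusted p 0.0411), a call lost in 4 of 6 fits with 1 mouse left out. Smg5 fell by 0.45 in Mbnl1-null muscle (SE 0.13, 0.0418), a call lost in 8 of 10 such fits. Its other probe set differed by 0.14 and was not called.

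Other anion channels (bestrophin, anoctamin, LRRC8, CLIC and related genes) gave 2 higher and 3 lower of 19 in line 20b, 1 lower of 19 in line 41, and 1 higher and 1 lower between the lines. The calls between the lines, Clns1a (higher) and Ano10 (lower), were lost in 6 and 13 of 18 fits with 1 mouse left out. In Clcn1-null muscle 1 of 18 rose, and in Mbnl1-null muscle none of 11 was called. Lrrc8c, a subunit of the volume-regulated anion channel, fell in both CUGexp lines. Its change was -0.85 in line 20b (SE 0.18, limma adjusted p 0.00247) and -0.87 in line 41 (SE 0.18, 0.0053), where its other probe set was not called. Pacc1, the proton-activated chloride channel, rose by 0.99 in line 20b (SE 0.28, 0.0181), while its 2 other probe sets differed by -0.14 and -0.08 and were not called. The Pacc1 call was lost without wild-type mice 1 and 2 (limma adjusted p 0.088). Clic4 rose by 0.96 in Clcn1-null muscle (SE 0.15, 0.0295), a call lost in 5 of 6 fits with 1 mouse left out. Its other probe sets differed by 0.15 and 0.65 and were not called.

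Cation chloride cotransporters and their WNK kinases set the chloride content of cells. None of 11 was called in the CUGexp comparisons. Wnk3 fell by 1.44 in Clcn1-null muscle (SE 0.16, limma adjusted p 0.0137), the 1 call of 11, and it was lost in 4 of 6 fits with 1 mouse left out. In Mbnl1-null muscle 2 of 8 fell. These were Wnk1 (-0.35, SE 0.07, limma adjusted p 0.00544) and Oxsr1, a kinase downstream of WNK (-0.33, SE 0.08, 0.0219). The Oxsr1 call was lost without FVB wild-type mouse 1 or 2 (limma adjusted p up to 0.0524). With arrays shifted to a common median both calls were lost (limma adjusted p 0.0722 for Wnk1 and up to 0.0712 for Oxsr1, which was lost with no filter as well).

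The V-ATPase is the proton pump of the compartments that hold ClC-3 to ClC-7. Of 18 subunits, 1 rose and 5 fell in line 20b, 1 rose and 1 fell in line 41, 2 fell between the lines, 2 rose in Clcn1-null muscle, and 2 rose and 1 fell in Mbnl1-null muscle. List medians lay between -0.10 and 0.04. The calls between the lines, Atp6v0a1 and Atp6v0b, were lost in 13 and 14 of 18 fits with 1 mouse left out. Those in Clcn1-null muscle, Atp6v1h and Atp6v0e, were each lost in 5 of 6 such fits. Atp6ap2, an accessory subunit, rose by 0.44 in line 20b (SE 0.08, limma adjusted p 0.00119), by 0.36 in line 41 (SE 0.08, 0.012) and by 0.38 in Mbnl1-null muscle (SE 0.09, 0.0156). Neither of its 2 other probe sets was called in line 41 (0.21 and 0.25) and 1 was called in line 20b and in Mbnl1-null muscle, and the Mbnl1-null call was lost with the median shift (limma adjusted p 0.0731). Atp6v1b2, a catalytic-ring subunit, fell by 0.79 in Mbnl1-null muscle (SE 0.14, 0.00332). It fell by 0.37 in line 20b (SE 0.11, 0.0287), a call lost without any of 7 of the 18 mice and with the median shift (limma adjusted p up to 0.07). Atp6v0a1 fell by 0.38 in line 20b (SE 0.08, 0.00361), where 1 of its 3 other probe sets was called too.

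Lysosomal genes gave 4 lower of 16 in line 20b, none in line 41 and 2 lower between the lines. None of 17 was called in Clcn1-null muscle, and 1 of 15 fell in Mbnl1-null muscle. Mcoln1, a lysosomal calcium channel, fell by 0.30 in line 20b (SE 0.08, limma adjusted p 0.0149), while its other probe sets differed by -0.16 and -0.04 and were not called. The protease genes Ctsl (-0.30, SE 0.06, 0.00141) and Ctsd (-0.30, SE 0.08, 0.0199) fell as well, while the other Ctsl probe set differed by 0.34 and was not called. Npc1, a lysosomal cholesterol transporter, was the gene that fell in Mbnl1-null muscle (-0.46, SE 0.12, 0.027), a call lost in 6 of 10 fits with 1 mouse left out. Without wild-type mice 1 and 2, the calls of Mcoln1 and Ctsd were lost (limma adjusted p up to 0.0787), and with the median shift those of Ctsd and Npc1.

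Markers of other fibre and cell types moved in the same comparisons, and their part in the results above was not tested. In line 20b, 6 of 9 endothelial and mural genes, 5 of 5 adipocyte genes and 2 of 3 nerve genes fell, and in line 41 5 of 9 endothelial genes and 1 of 3 nerve genes fell. The summed intensity of the endothelial list ran from 3.098e+04 to 3.713e+04 in line 20b and from 2.417e+04 to 3.744e+04 in line 41, against 3.957e+04 to 5.135e+04 in wild type. For the adipocyte list it was 2.421e+04 to 3.108e+04 in line 20b and 1.938e+04 to 6.297e+04 in line 41, against 3.239e+04 to 1.157e+05 in wild type. Without wild-type mice 1 and 2, the line 20b calls of Adipoq, Pck1, Cldn5 and Mbp among these genes were lost, those of Cidec, Tek, Pecam1 and Mal held, and Clcn1 was still called in both lines. The nerve gene called in line 41 was also Mal. That call was lost without these mice, and in 11 of 18 fits with 1 mouse left out. No slow fibre gene was called in the CUGexp comparisons. Of 12 fast fibre genes, 1 rose and 2 fell in line 20b, none was called in line 41, and 1 rose and 2 fell between the lines.

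In Clcn1-null muscle, 5 of 9 slow fibre genes fell and 1 rose, 3 of 5 adipocyte genes rose, and of 12 fast fibre genes Myh2 rose and Actn3 fell. The call of Myh2 was lost in 5 of 6 fits with 1 mouse left out, and those of Actn3 and the slow myosin gene Myh7 in 4 of 6. The summed slow fibre intensity was 3.121e+04 to 4.834e+04 in the null mice, against 9.18e+04 to 1.23e+05 in BALB wild type, and the adipocyte sum was 1.049e+05 to 1.179e+05, against 4.955e+04 to 6.719e+04. In Mbnl1-null muscle 7 of 9 slow fibre genes fell, with sums of 5615 to 2.702e+04 in null mice, against 4.146e+04 to 5.69e+04 in wild type. None of the 12 fast fibre genes was called there. Of the macrophage genes, 1 of 6 rose in line 41, 1 of 7 rose in Clcn1-null muscle, and 2 rose and 1 fell of 7 in Mbnl1-null muscle. Cd68, a macrophage marker, rose by 3.25 in Clcn1-null muscle (SE 0.34, limma adjusted p 0.0115), a call lost without BALB wild-type mouse 1 or 3 (up to 0.0787), and by 1.91 in Mbnl1-null muscle (SE 0.40, 0.00771). Cd163, also a macrophage marker, fell by 1.10 in Mbnl1-null muscle (SE 0.30, limma adjusted p 0.0307), a call lost in 7 of 10 fits with 1 mouse left out. Fibroblast genes gave 1 lower in line 20b and 1 higher in Mbnl1-null muscle of 5, and the blood gene Alas2 fell in line 20b. The calls of Alas2 and of the fibroblast gene Dcn in line 20b were lost without wild-type mice 1 and 2.

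The genes whose pattern was most like that of Clcn1 were found over the 28 mice of experiments 1 and 3, as deviations from the wild-type mean of the same experiment, among 14340 probe sets. Pearson's r is given as a description, and the mice share groups and arrays. The 5 highest were Pdlim7 (0.95), a PDZ and LIM domain protein that binds actin structures, a Ckm probe set (0.95; muscle creatine kinase), Styx (0.93), Fam78a (0.93) and Prkab2 (0.92), a subunit of AMP-activated kinase. Pdlim7 was chosen for its likeness to Clcn1 in these mice, so its changes there, -2.01 in line 20b, -0.86 in line 41 and -2.66 in Mbnl1-null muscle, are given with no test. Its other probe set, with an r of 0.81, differed by -0.97, -0.46 and -1.33 in the same order. Clcn1-null mice did not enter the choice. In them Pdlim7 (-1.49, SE 0.19, limma adjusted p 0.0174), Styx (-2.14, 0.0108), Fam78a (-2.35, 0.0295) and Prkab2 (-2.56, 0.0082) fell on these probe sets. The Ckm probe set (-0.39, 0.361) and the other Pdlim7 probe set (-2.59, 0.0883) were not called. Whether these calls held with 1 mouse left out was not examined. Over all probe sets such fits called from 35 to 2273, against 1091 with all mice. The 5 lowest were Tln1 (-0.95; talin, a link of integrins to actin), Hspa2 (-0.93), Psmb4 (-0.92), Nfatc2 (-0.91) and Nsa2 (-0.91), and none of these 5 probe sets was called in Clcn1-null mice, although the other Tln1 probe set rose there (1.17, SE 0.18, limma adjusted p 0.0289). Within groups the size of r dropped to between 0.40 and 0.63 for the 5 highest and between 0.14 and 0.57 for the 5 lowest. Some of these patterns belonged to 1 probe set: the other Ckm probe set had an r of 0.27, the other Tln1 -0.54, the other Psmb4 -0.29 and the other Nsa2 -0.28.

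Among the CLC members themselves, the Clcn7 probe sets had an r of 0.27 and 0.13 with Clcn1, and the 4 Clcn3 probe sets had -0.25, -0.25, -0.30 and -0.36. Taken within groups, the Clcn3 values had the opposite sign, from 0.33 to 0.55, so a mouse with more Clcn1 signal than its group tended to have more Clcn3 signal as well. These points share an array for each mouse.

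**Figure D5:**
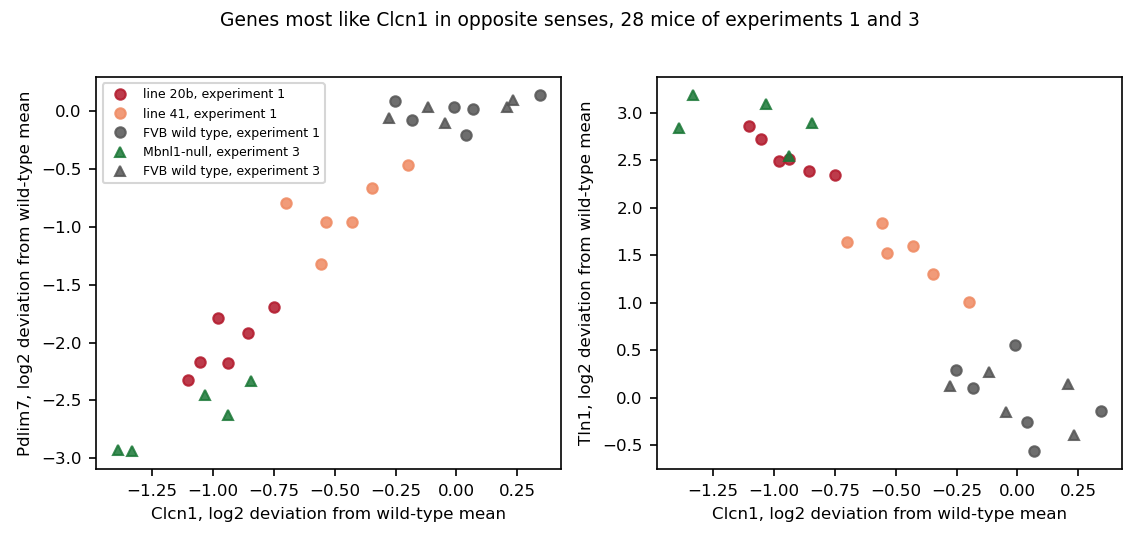
Log2 deviation from the wild-type mean of the same experiment for Clcn1 (horizontal axes) against Pdlim7 (left) and Tln1 (right, vertical axes) in 28 mice, circles for experiment 1 and triangles for experiment 3. Mutant mice lie left of the wild types, apart from 1 line 41 mouse within their range, with r of 0.95 for Pdlim7 and -0.95 for Tln1 over all mice.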

How the data were processed

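Quadriceps RNA was prepared with Tri-Reagent and made into biotin-labelled target with an Enzo kit, per the labels' protocols. Each deposited value is the linear intensity of 1 probe set, for which the submitters' processing notes name GCRMA; its version and settings, and whether the experiments were normalised together, are not given in the sources used here. Arrays give no counts, so the number of mice limits the precision.

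The 430A and 430B values of a mouse were stacked by its number in the title, taken to log2 and fitted per experiment in limma 3.58.1 under R 4.3.3, using lmFit on group means and eBayes with its trend option. Tests were two-sided and adjusted over all probe sets of a comparison. Of 45037 probe sets, 34945 had 1 gene symbol, 932 had several and 9160 had none. Differences between probe sets of a gene were tested with an exact permutation test (scipy 1.17.1), adjusted over 31 pairs. Simulated data served as a check of the fit. The simulation changed fewer probe sets than were called in the real comparisons, and the adjusted p depends on that number. The shares below are therefore no estimate of how many real changes were found. In the Clcn1-null comparison, 8% of simulated log2 changes of 1 and 22% of those of -1 were called. The shares were 94% and 88% in line 20b against wild type, and 78% and 86% in the Mbnl1-null comparison.

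The members, lists and naming rule were chosen with earlier results of these data known. The rule named every member, up to 3 called genes of each list and comparison by size of change, and the 5 genes most and least like Clcn1; some list genes were left out for length. Promoters were read from the RefSeq table, which names build GRCm38.p6.

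Alternatives were quantile normalisation, a median shift, other filters, 1 probe set per gene, 430A and 430B apart, other eBayes settings, array weights, a replicate block, an adjusted p under 0.01, experiment 1 without FVB wild-type mice 1 and 2, and each mouse left out.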

Additional observations from a re-analysis of the deposited data

Results flagged for a closer look

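Of 50 groups of member probe sets, 3 held a mouse far from the rest of its group, and chance flags about 1 in 20 groups. All 3 were Clcn3 probe sets of experiment 1. In line 20b, mouse 3 read 11.09 on 1433487_at, where the other 5 read 11.53 to 11.60. In FVB wild type, mouse 3 read 12.09 on 1416610_a_at, where the others read 12.48 to 12.63, and mouse 6 read 8.92 on 1441248_at, where the others read 8.56 to 8.63. Without line 20b mouse 3, the line 20b changes of 1433487_at (0.41) and 1416610_a_at (0.35) were called by limma, with adjusted p values of 0.0231 and 0.0272. Without wild-type mouse 3, the one flagged on 1416610_a_at, the change of that probe set was not called. Over the 18 fits with 1 mouse left out it ran from 0.22 to 0.35 (limma adjusted p 0.0272 to 0.131), called in 1. For 1433487_at the range was 0.25 to 0.41 (0.0231 to 0.165), called in 2.

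The change of Clcn1 in line 20b differed from that in line 41 by -0.49, tested directly between the lines (limma adjusted p 0.00708).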

How the results depend on the processing

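The decrease of Clcn1 was called under every alternative run in line 20b (limma adjusted p up to 2.6e-05), line 41 (up to 0.019; -0.51 to -0.39), line 20b against line 41 (up to 0.0198; -0.53 to -0.43) and Mbnl1-null muscle (up to 0.00182). In Clcn1-null muscle it was called (limma adjusted p in brackets) with quantile normalisation (-1.39, 0.0475), a filter at log2 7 (-1.42, 0.0381), 1 probe set per gene (-1.42, 0.0415), 430A and 430B apart (-1.42, 0.0349), no trend (-1.42, 0.0477), array weights (-1.34, 0.00881) and only probe sets past the filter in experiment 3 too (-1.42, 0.0298), the last chosen after seeing the data. It was not called with the median shift, no filter, robust trend or the replicate block (up to 0.126). It ran from -1.71 to -1.20 with 1 mouse left out, called in 1 of 6 such fits (0.0367 to 0.203).

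The count of member probe sets called in line 20b was 2 as reported. This count was 4 with quantile normalisation, array weights, the replicate block or the experiment 3 filter. It was 5 with the median shift and 1 with no filter or at an adjusted p under 0.01. In line 41 it was 1 with 1 probe set per gene or at an adjusted p under 0.01. In Clcn1-null muscle it was 1 under the settings that called Clcn1, except array weights, which gave 5. In Mbnl1-null muscle it was 2 with array weights or the replicate block. With 1 mouse left out the counts ran from 1 to 4 in line 20b, 2 to 2 in line 41, 1 to 1 between the lines, 0 to 1 in Clcn1-null and 1 to 2 in Mbnl1-null muscle. The labels do not tie mice of the same number, so the numbers were not taken as pairs. The deviations of mice with the same number correlated at -0.153 to 0.398. The best match of a mouse bore its own number for 4 of 6 numbers between FVB wild type and line 20b. For line 41 this held for 1 of 6 against wild type and 3 of 6 against line 20b. It held for 1 of 3 in experiment 2 and 2 of 5 in experiment 3. In experiment 3 the correlations ran from 0.023 to 0.398. Whether mice of the same number shared a batch was not tested. A fit with the replicate block called 4621, 2266, 1616, 110 and 3310 probe sets in the order of the report, against 4630, 2319, 1615, 1091 and 2628. In Clcn1-null muscle the block also ended the call of Ostm1 (limma adjusted p 0.0831), and all probe sets called there were 7393 with array weights, 610 with no filter, 701 with 1 probe set per gene, 154 at an adjusted p under 0.01 and 35 to 2273 with 1 mouse left out. At an adjusted p under 0.01 and with 1 probe set per gene, 2612 and 2523 were called in line 20b, 893 and 1195 in line 41, 609 and 809 between the lines and 1159 and 1465 in Mbnl1-null muscle, where the median shift gave 1502 and no filter 1727. Without wild-type mice 1 and 2, 1434 were called in line 41. No pair of probe sets of a gene was called under any alternative (lowest adjusted p 0.0606 with 1 mouse left out). In these fits too, 1 pair alone could not pass, so the result does not show that the probe sets changed alike.

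Signs turned only for uncalled changes near 0. In line 20b Clcn3 1441248_at was -0.0037 with the median shift (-0.019 to 0.10 with 1 mouse left out). In line 41 Clcn5 1420295_x_at was 0.0046 with the median shift and 0.018 without wild-type mice 1 and 2 (-0.044 to 0.024), 1429400_at -0.065 with array weights (-0.17 to 0.14) and 1441831_x_at -0.015 with quantile normalisation and -0.027 with the median shift (-0.12 to 0.12). Clcn3 1433486_at was 0.039 with array weights (-0.10 to 0.093) and 1441248_at 0.01 with quantile normalisation (-0.043 to 0.049), and Clcn7 1452702_at was 0.0079 with quantile normalisation. Between the lines Clcn6 1455440_at was -0.0016 with quantile normalisation and -0.0092 with the median shift (-0.044 to 0.048), with 1 mouse left out Clcn7 1450408_at ran from -0.10 to 0.0079, and Clcn3 1441248_at from -0.013 to 0.094. In Clcn1-null muscle Clcn5 1429400_at was 0.10 with array weights (-0.12 to 0.10) and Clcn7 1450408_at ran from -0.094 to 0.22, and in Mbnl1-null muscle Clcn7 1452702_at from -0.10 to 0.041. The cause of these differences was not tested. Clcn2 and 1 probe set each of Clcn5, Clcn6 and Clcn7 stayed under the filter, so signal over background gives no comparison for them.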
